A study of Mus musculus with 6 samples.

Results

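The genes described here mark the inhibitory interneurons of the cerebellum or make and move their transmitters. They comprise Gad1, Gad2, Slc32a1, Slc6a5, Pax2, Tfap2b, Kit, Sorcs3 and Sst, 9 symbols in all. Every probe annotated to one of these symbols alone was taken, which gave 17 of the 45037 probes besides controls and covered 8 of the 9 genes (of 18193 genes with such a probe); no listed probe carried Pax2 alone, and Pax2 was not analysed here. The samples were brain tissue, cerebellum by the series title, of 3 wild-type mice and 3 Gb5-deficient mice, with 1 single-colour Affymetrix array per mouse. Gb5 is the G protein beta subunit encoded by Gnb5. The labels describe the cohorts as littermates of matching age and sex but give neither the age nor the sex, nor how the Gnb5 allele was made. The Gb5-deficient group is called knockout below, and arrays keep the numbers of the labels, 1 to 3 for wild type and 4 to 6 for knockout.

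None of the 8 measured genes passed the test of knockout against wild type (limma adjusted p of 0.05), which 0.0355% of the 14067 genes tested did, 5 genes in all. In 16 of the 17 probes the values of the genotypes overlapped; over all 45037 probes, 8.25% lay higher in knockout without overlap and 5.34% lower. Knockout minus wild type, the log2 fold changes of the 8 genes lay between -0.10 for Gad1 and 0.35 for Sst, with a median of 0.15. The narrowest interval was that of Gad2, from -0.19 to 0.11 (log2, 95%), which corresponds to a ratio of knockout to wild type between 0.874 and 1.08. The widest was that of Sst, from -0.07 to 0.77, a ratio between 0.951 and 1.71.

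Cerebellar inhibitory interneurons include the basket and stellate cells of the molecular layer and the Golgi cells of the granular layer. They release GABA, and many Golgi cells also release glycine; Purkinje cells, the output neurons of the cortex, are GABAergic too and express Gad1, Gad2 and Slc32a1. GABA is made from glutamate by the glutamate decarboxylases, loaded into vesicles by the vesicular inhibitory amino acid transporter, which also carries glycine, and acts on postsynaptic chloride channels. Gb5 forms complexes with RGS proteins that shorten Gi/o signalling, the branch of G protein signalling that inhibits adenylyl cyclase and lowers cAMP. In whole tissue, fewer cells of a type and less RNA per cell cannot be told apart.

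The cAMP response element is the promoter sequence through which cAMP-activated transcription factors act, and the Sst promoter is a textbook case of it. The sequences that follow show that element and its core in the promoters of the members, taken from RefSeq windows of GRCm38.p6. The full element, TGACGTCA, was found in the 250 bases before a transcript start of 1 of the 9 genes, Sst, and in 1.56% of 32536 such windows (506 windows, both strands searched). Its core, TGACG, which the full element contains on both strands, was found in windows of 4 genes and in 17.9% of all windows. The 9 genes had 13 windows, so the count of genes and the share of windows are unlike measures. Other motifs were searched in the same windows. The AP-2 motif (GCCNNNGGC) was found in 3 member genes and 13.8% of all windows. The RBPJ motif (TGGGAA) was found in 2 and 21.6%, and the TATA motif (TATAAA) in 1 and 12.3%. The stretch of the Sst promoter that ends just before the transcript start, chr16:23890845-23890944 on the minus strand, is printed 5′ to 3′ with the full element in capitals.
Sst: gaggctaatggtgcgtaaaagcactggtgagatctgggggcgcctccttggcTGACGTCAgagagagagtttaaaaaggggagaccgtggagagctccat
The same element and the cores found in the other genes, with 16 bases on each side and the match in capitals, are given along the strand of the gene.
Sst element: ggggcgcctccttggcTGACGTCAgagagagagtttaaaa
Gad2 core: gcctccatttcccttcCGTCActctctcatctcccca
Slc6a5 core: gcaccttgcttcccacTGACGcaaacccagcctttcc
Tfap2b core: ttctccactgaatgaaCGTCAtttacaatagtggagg
The matches began 48 bases before the transcript start of the window in Sst, 33 in Gad2, 34 in Slc6a5 and 108 in Tfap2b. The RefSeq spans of these genes begin further upstream, at 23891342 for Sst, 22621015 for Gad2, 49906984 for Slc6a5 and 19208908 for Tfap2b. The matches therefore lie inside the gene spans. The windows lie at chr2:22622278-22622314 for Gad2, chr7:49910249-49910285 for Slc6a5 and chr1:19211930-19211966 for Tfap2b, all on the plus strand, and at chr16:23890869-23890908 on the minus strand for Sst. A match describes letters only, and no binding was measured here.

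The tissue label was checked against markers of cerebellar and other cells. The wild-type means of 8 granule cell markers lay between percentiles 82.0 and 99.7 of all probes, and those of 6 Purkinje cell markers between 94.7 and 99.3. Of 10 markers of forebrain inhibitory neurons, Dlx1, Dlx2, Dlx5, Dlx6 and Lhx6 lay between percentiles 13.1 and 27.0, below the filter on low signal. The other 5 lay above it, Nkx2-1 at percentile 41.3, Drd1 at 45.0, Ppp1r1b at 63.3, Drd2 at 65.0 and Penk at 88.3. Gnb5 itself was lower in knockout, at 3.32 ± 0.34 against 8.67 ± 0.15 (log2, SD, n = 3 each), and its log2 fold change was -5.35 (SE 0.18; limma adjusted p = 4.33e-06). Knockout array 6 differed from the other arrays in sex-linked signal, with Xist at 8.22 against 11.17 to 11.64 and the Y-linked gene Eif2s3y at 11.80 against 3.19 to 3.43, so the sexes were not matched by these signals. The difference between 3′ and 5′ control probes of Gapdh, a measure of RNA integrity, was 1.03 to 1.04 on the wild-type arrays. Every knockout array was higher, array 4 at 1.14, array 5 at 1.07 and array 6 at 1.58. For actin the same measure was 2.76 to 2.84 on the wild-type arrays, and arrays 4 to 6 read 2.84, 2.95 and 3.18. Leaving out array 6 therefore did not remove the genotype difference in the Gapdh measure. Values without array 6 are given beside the 5 member probes on which it was the highest or the lowest.

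The glutamate decarboxylases make GABA. Gad1 encodes the larger form, which is spread through the cell, and Gad2 the smaller form, which is enriched at nerve endings. The brightest Gad1 probe gave 11.44, 11.44 and 11.16 (wild type, arrays 1 to 3) and 11.51, 10.89 and 11.35 (knockout, arrays 4 to 6) on the log2 scale. Array 5 was the lowest and array 4 the highest, both knockout, so the knockout values enclosed those of wild type. Knockout minus wild type came to -0.10 (log2; SE 0.16; limma adjusted p = 0.835), and it was 0.08 without array 5 and -0.15 without array 6.

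The second Gad1 probe did not follow the first across arrays. It read 8.55, 8.08 and 8.51 on the wild-type arrays and 8.49, 8.72 and 8.29 on the knockout arrays, so that array 5, the lowest on the first probe, was the highest here. Its log2 fold change was 0.12 (SE 0.16; limma adjusted p = 0.858 over all probes). The difference between the probes averaged 2.97 in wild type and 2.75 in knockout, a change of -0.22 with an exact two-sided permutation p of 0.7 (n = 3 arrays per genotype). That test cannot give a p below 0.1 with 3 arrays against 3. Over the 9 probe pairs compared in this way, the Benjamini-Hochberg adjusted p of the Gad1 pair was 0.9. The smallest exact permutation p, 0.1, came from the Sorcs3 pair and from the brightest Slc32a1 probe against that with a wild-type mean of 5.63. The changes there were 0.29 and 0.34, with a Benjamini-Hochberg adjusted permutation p of 0.45 each.

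Gad2 had the smallest SE of the 8 genes. Its brightest probe gave 11.69, 11.66 and 11.76 (wild type, arrays 1 to 3) and 11.62, 11.74 and 11.63 (knockout, arrays 4 to 6), and the genotypes overlapped. Its log2 fold change was -0.04 (SE 0.07; limma adjusted p = 0.825). The dimmer Gad2 probe read 8.96, 8.79 and 8.98 on the wild-type arrays and 8.80, 8.99 and 8.42 on the knockout arrays. Array 6 was the lowest there, and the log2 fold change was -0.17 (SE 0.15; limma adjusted p = 0.778 over all probes), or -0.01 without that array.

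Slc32a1 encodes the vesicular inhibitory amino acid transporter, which fills vesicles with GABA or glycine. Its brightest probe gave 10.47, 10.63 and 10.62 (wild type, arrays 1 to 3) and 10.64, 10.66 and 10.92 (knockout, arrays 4 to 6). All 3 knockout arrays lay above all 3 wild-type arrays, the only such case among the 17 probes, although the lowest knockout and the highest wild-type value differed by less than the spread within either genotype. The same non-overlap, knockout above wild type, was seen in 10.1% of the 14067 genes tested (1425 genes), and the reverse in 4.82%. For Slc32a1 the log2 fold change was 0.17 (SE 0.10; limma adjusted p = 0.617), and it was 0.08 without array 6.

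The 3 dimmer Slc32a1 probes, at percentiles 47.8, 40.5 and 34.9 of all probes in wild type, gave values on both sides of 0. The probe with a wild-type mean of 6.31 ± 0.22 (log2, SD, n = 3) averaged 6.21 ± 0.30 in knockout (SD, n = 3), which is a difference of -0.10, or 0.07 without array 6. The probe with a wild-type mean of 5.63 had a log2 fold change of -0.17, which was -0.08 without array 6 and -0.26 without array 5. The dimmest, with a wild-type mean of 5.12, had one of 0.23. Array 6 was the highest of the 6 arrays on the brightest probe and the lowest on the probes with means of 6.31 and 5.63. Their limma adjusted p over all probes ran from 0.702 to 0.902.

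Slc6a5 encodes the neuronal glycine transporter that refills glycinergic endings and marks glycinergic Golgi cells. Its brighter probe read 8.17, 8.0 and 8.33 on the wild-type arrays and 8.21, 8.38 and 7.98 on the knockout arrays. The highest and the lowest of the 6 arrays, 5 and 6, were both knockout. The difference between genotypes was 0.02 (log2; SE 0.14; limma adjusted p = 0.963), and its sign turned without array 2 (-0.06) or array 5 (-0.07), and with array medians subtracted (-0.01). It was 0.12 without array 6. The other Slc6a5 probe, at percentile 21.4 of all probes in wild type, was the 1 member probe below the filter on low signal (log2 4.70) and had a log2 fold change of 0.14 (SE 0.13).

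**Figure D1:**
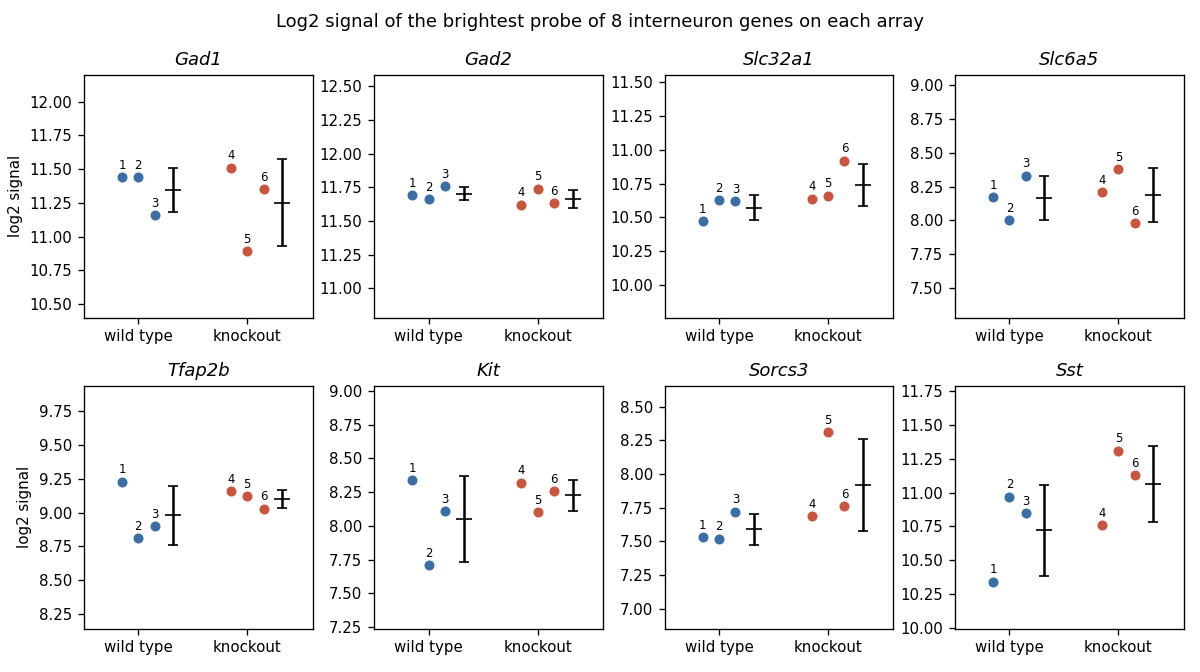
Log2 signal (vertical axis, the same number of log2 units in each panel) of the brightest probe of each of the 8 genes in 3 wild-type (blue) and 3 knockout (red) arrays, numbered as in the labels, with the mean and SD of each genotype in black. Slc32a1 is the gene whose genotypes do not overlap, and array 5 stands highest in Slc6a5, Sorcs3 and Sst and lowest in Gad1.

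Tfap2b, an AP-2 transcription factor, is expressed by developing and adult inhibitory neurons of the cerebellum, and Pax2 marks their precursors. The brighter Tfap2b probe gave 9.23, 8.81 and 8.90 (wild type, arrays 1 to 3) and 9.16, 9.12 and 9.03 (knockout, arrays 4 to 6). The knockout arrays lay within the range of wild type and were closer together, with an SD of 0.06 against 0.22. Its log2 fold change was 0.12 (SE 0.13; limma adjusted p = 0.743), and it was 0.25 without array 1 and 0.04 without array 2. The second probe, at 7.52 ± 0.26 in wild type and 7.68 ± 0.37 in knockout (log2, SD, n = 3 each), had a value of 0.16 (SE 0.21), which became -0.05 without array 5.

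Kit encodes the receptor for stem cell factor and is a marker of molecular layer interneurons, while Purkinje cells make its ligand, encoded by Kitl. The brighter Kit probe read 8.34, 7.71 and 8.11 on the wild-type arrays and 8.32, 8.10 and 8.26 on the knockout arrays. Wild-type array 2 was the lowest, and the other 5 arrays lay between 8.10 and 8.34. The mean difference was 0.17 (log2; SE 0.16; limma adjusted p = 0.719), and it was 0.00 without array 2.

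The dimmer Kit probe showed the same low array. It gave 6.07, 5.30 and 6.07 (wild type, arrays 1 to 3) and 5.93, 6.45 and 6.28 (knockout, arrays 4 to 6). The difference here, 0.41 (log2; SE 0.23; limma adjusted p = 0.698 over all probes), was the largest of the 17 and was 0.15 without array 2. This probe was dim, at percentile 42.4 of all probes in wild type. Kit is also known from mast cells, whose 6 markers Cpa3, Mcpt4, Tpsb2, Cma1, Fcer1a and Ms4a2 had wild-type means between percentiles 0.293 and 27.4 of all probes, all below the filter. The log2 of their summed signal was 6.06 to 6.30 in wild type and 6.12 to 6.28 in knockout. Kitl read 9.94 ± 0.24 in wild type and 9.78 ± 0.32 in knockout (log2, SD, n = 3 each), and its difference of -0.17 (SE 0.18) had a limma adjusted p of 0.748.

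Sorcs3 encodes a sorting receptor of the sortilin family that is found in molecular layer interneurons. Its brighter probe read 7.53, 7.52 and 7.72 on the wild-type arrays and 7.69, 8.31 and 7.76 on the knockout arrays. Array 5 stood above the rest, and the other knockout arrays lay just below and just above the highest wild-type array. For this probe the log2 fold change was 0.33 (SE 0.17; 95% interval -0.05 to 0.72; limma adjusted p = 0.609), and it was 0.14 without array 5. The dimmer probe, at 4.69 ± 0.14 in wild type and 4.74 ± 0.43 in knockout (log2, SD, n = 3 each), also had array 5 as its highest. It gave 0.04 (SE 0.20), or -0.20 without that array. Its signal lay next to the filter on low signal (log2 4.70), at percentile 29.9 of all probes in wild type.

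Sst encodes somatostatin, a peptide transmitter that inhibits cells through Gi/o-coupled receptors and has been described in some Golgi cells. Its single probe gave 10.34, 10.97 and 10.85 (wild type, arrays 1 to 3) and 10.76, 11.31 and 11.13 (knockout, arrays 4 to 6). Wild-type array 1 was the lowest and knockout arrays 5 and 6 the highest, while knockout array 4 lay among the wild-type arrays. Knockout minus wild type gave 0.35 (log2; SE 0.19; 95% interval -0.07 to 0.77; limma adjusted p = 0.612). It was 0.16 without array 1, 0.23 without array 5, 0.32 without array 6 and 0.50 without array 4, with a limma adjusted p of 0.271 in the last case.

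Across the 8 genes, 6 log2 fold changes were above 0 and 2 below, with a median of 0.15, while 56.7% of the 14067 genes tested were above 0 and their median was 0.026. None of the 8 had an unadjusted limma p under 0.05, which 8.57% of all genes had (1205 genes). By unadjusted limma p, Sorcs3 (0.0834), Sst (0.0937) and Slc32a1 (0.131) came first. Without array 2 the median of the 8 was 0.02.

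Over the 17 probes, 12 log2 fold changes were above 0 and 5 below, with a median of 0.12, and 53.5% of all probes were above 0 with a median of 0.013. None of the 17 passed, against 0.0222% of all probes (10 probes), and none had an unadjusted limma p under 0.05, against 7.61%. The adjusted p of the member probes ran from 0.688 to 0.977. In 2 of the 7 genes with several probes, the probes did not all have one sign. These were Gad1, with values of -0.10 and 0.12, and Slc32a1, with 0.17, -0.10, -0.17 and 0.23.

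**Figure D2:**
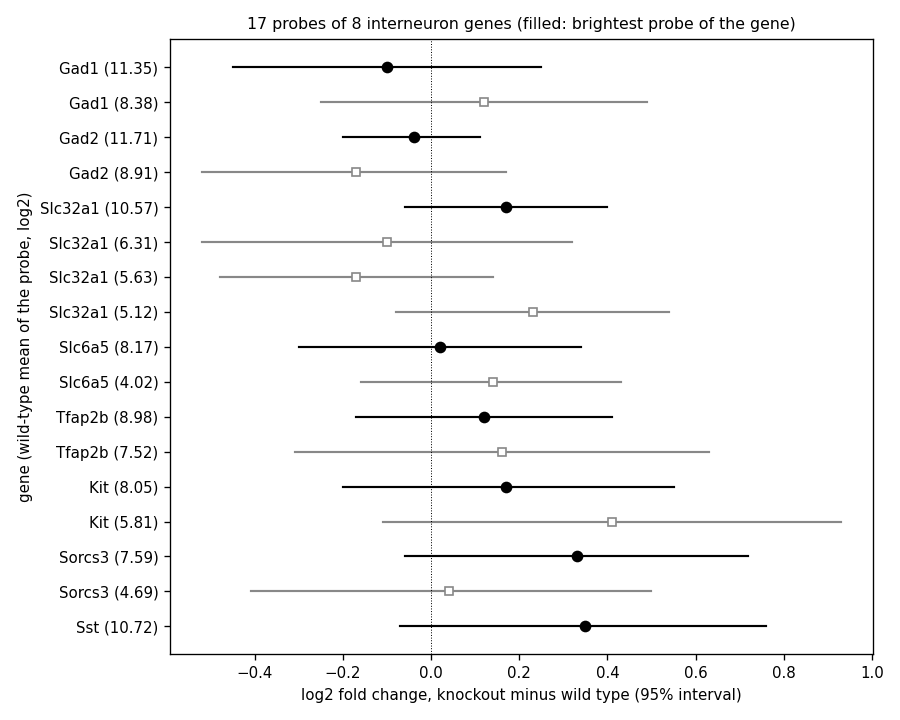
Log2 fold change (knockout minus wild type, horizontal axis) with its 95% interval for each of the 17 probes in the fit over all probes; filled circles mark the brightest probe of a gene, open squares its other probes, and the wild-type mean of the probe (log2) stands in brackets. Every interval includes 0, and probes of Gad1 and of Slc32a1 lie on both sides of it.

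The members differed between arrays of one genotype. Among the brightest probes the widest range within wild type was 0.64, in Kit, and the widest within knockout was 0.62, in Gad1 and Sorcs3, while the narrowest were those of Gad2 in wild type (0.09) and of Gad2 and Tfap2b in knockout (0.12 each). Array 5, a knockout, was the highest of the 6 arrays in 10 of the 17 probes, and it was the highest in 24.3% of all probes. Since several probes share a gene, the count per gene is given too: array 5 was the highest in 3 of the 8 brightest probes, against 27.7% of the genes tested. Wild-type array 2 was the lowest in 7 of the 17, against 15.8% of all probes, and in 3 of the 8, against 14.4% of genes. On array 5, 15 of the 17 probes were above their own mean over the 6 arrays, the exceptions being the brighter probes of Gad1 (-0.41) and Kit (-0.04); on array 2, 3 of 17 were. On array 6, the array with male sex-linked signal, 7 of 17 were above the mean, and the dimmer probes of Gad2 (-0.41) and Slc32a1 (-0.39) were the furthest below it. A brightest probe lay more than 0.40 from its mean in 4 genes: Gad1 on array 5 (-0.41), Kit on array 2 (-0.43), Sorcs3 on array 5 (0.55) and Sst on arrays 1 (-0.56) and 5 (0.42).

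**Figure D3:**
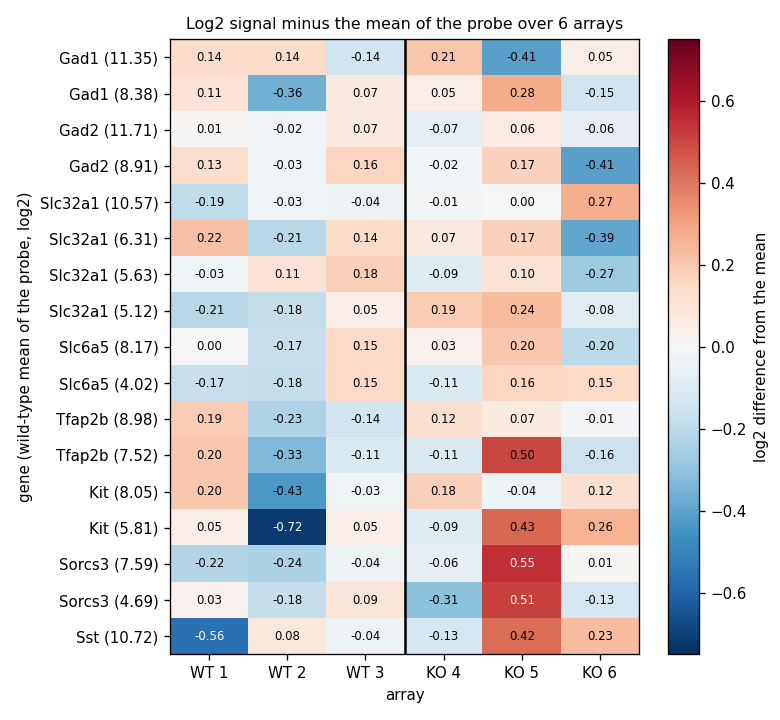
Log2 signal of each of the 17 probes minus the mean of that probe over the 6 arrays, by array (WT, wild type; KO, knockout; red above the mean, blue below), with the value in each cell. Array 5 is above the mean in 15 of 17 probes and array 2 in 3 of 17.

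Other genes of GABA and glycine handling, of the inhibitory synapse and of the interneuron lineage held no gene that passed. In 6 lists with 42 genes tested of 54 listed, 20 log2 fold changes were above 0 and 22 below, and 5 genes had an unadjusted limma p under 0.05, which is 11.9% against 8.57% of all genes. Without overlap, 5 of the 42 lay higher in knockout, against 10.1% of all genes, and 1 lay lower, against 4.82%. Of GABA uptake, breakdown and glutamine supply, 7 of 9 genes were tested, with a median of -0.05; Aldh5a1, which completes the breakdown of GABA to succinate, had a log2 fold change of -0.17 (SE 0.07) and the glial GABA transporter Slc6a11 one of -0.12 (SE 0.37), which turned to 0.05 without array 3, 0.02 without array 4 and 0.20 without array 6. Of glycine uptake, synthesis and cleavage, 6 of 7 were tested, with a median of -0.02; Shmt1, which makes glycine from serine, had a value of -0.29 (SE 0.47), or 0.37 without array 5, its lowest array, and Gldc, the decarboxylase that breaks glycine down, one of 0.27 (SE 0.10). Their limma adjusted p ran from 0.573 for Gldc to 0.919 for Slc6a11.

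On the receiving side of the synapse, 8 of 10 genes were tested, with a median of 0.00. The chloride exporter Slc12a5, which keeps GABA inhibitory in mature neurons, read 12.04, 11.93 and 11.97 on the wild-type arrays and 12.10, 12.11 and 12.22 on the knockout arrays (log2), with no overlap. Its log2 fold change was 0.17 (SE 0.06; limma adjusted p = 0.573), and that of the chloride importer Slc12a2 was -0.11 (SE 0.09). Of the lineage factors, 4 of 9 were tested, with a median of 0.03 and Lhx5 (0.10) and Lhx1 (0.07) as the largest; Ptf1a, the factor that commits cerebellar precursors to an inhibitory fate, was below the filter, at 3.91 and 3.96 in the genotypes.

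Of other interneuron markers, 7 of 8 were tested, with a median of 0.03. Grm2, a Gi/o-coupled glutamate receptor of Golgi cells, gave 6.41, 6.48 and 6.59 (wild type, arrays 1 to 3) and 6.73, 6.92 and 7.05 (knockout, arrays 4 to 6), with no overlap. Knockout minus wild type was 0.41 (log2; SE 0.12; limma adjusted p = 0.520). The peptide gene Npy had a value of 0.28 (SE 0.19).

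Of the ligands, receptors and relatives of Kit, Sst and Sorcs3, 10 of 11 were tested, with a median of 0.03. The somatostatin receptor gene Sstr2 read 8.19, 8.89 and 8.80 on the wild-type arrays and 8.86, 8.91 and 9.55 on the knockout arrays, with wild-type array 1 lowest and knockout array 6 highest. For Sstr2 the log2 fold change was 0.48 (SE 0.23; limma adjusted p = 0.600). Sorcs1, a relative of Sorcs3, gave 5.76, 6.47 and 6.19 (wild type, arrays 1 to 3) and 6.49, 6.71 and 6.56 (knockout, arrays 4 to 6), without overlap, and had a value of 0.45 (SE 0.18; limma adjusted p = 0.574). Array 1 was the lowest array for Sst, Sstr2 and Sorcs1, and also in 31.9% of all genes tested.

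**Figure D4:**
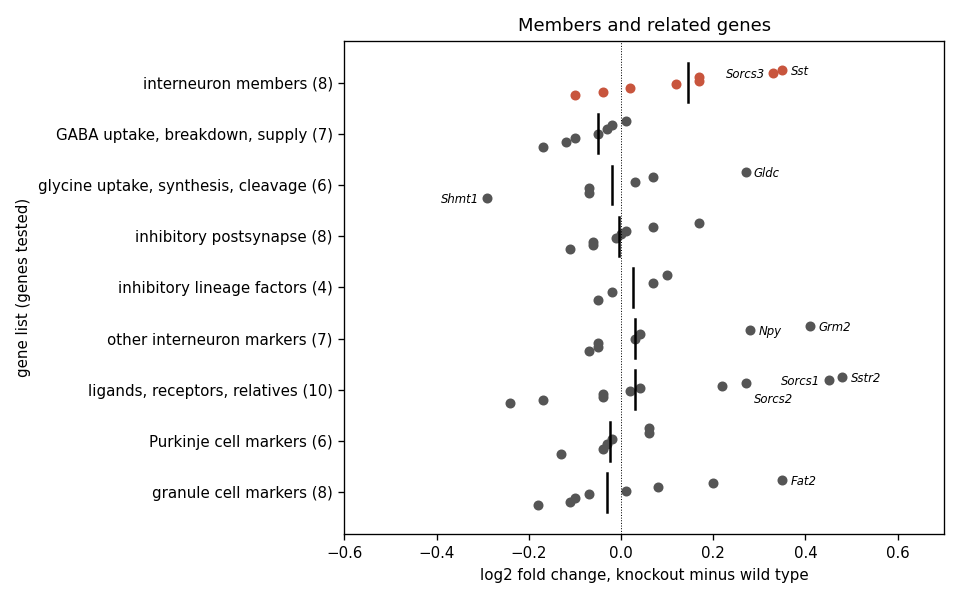
Log2 fold change (knockout minus wild type, horizontal axis) of the 8 interneuron genes (red) and of related genes and of Purkinje and granule cell markers (grey), 1 point per gene tested, with the list median as a black line. No gene shown passed an adjusted p of 0.05, and the list medians lie between -0.05 and 0.15.

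Because Purkinje cells also express Gad1, Gad2 and Slc32a1, their markers were set beside these genes. Of 8 Purkinje markers 6 were tested, with log2 fold changes from -0.13 for Car8 to 0.06 for Pcp2 and Rora and a median of -0.03. With 1 array left out that median ran from -0.09 to 0.05, and the value of Car8 turned to 0.07 without array 5. The log2 of their summed signal was 14.98 to 15.15 in wild type and 14.97 to 15.16 in knockout. All 8 granule cell markers were tested, with a median of -0.03 and Fat2 (0.35) and Slc17a7 (0.20) as the largest, and a summed signal of 15.15 to 15.36 in wild type and 15 to 15.36 in knockout. No gene of either list passed.

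Markers of other cells and regions also held no passing gene. Medians were 0.02 for Bergmann glia and astrocytes (6 of 6 tested; Aldh1l1 0.22, Gdf10 0.12), 0.06 for forebrain inhibitory neurons (5 of 10; Ppp1r1b 0.24, Penk 0.08) and -0.07 for brainstem (2 of 8; Hoxb3 -0.15, Slc17a6 0.02). They were 0.12 for melanocytes (2 of 4; Pmel 0.19, Dct 0.05), -0.27 for choroid plexus (4 of 4; Ttr -0.56, Kcnj13 -0.32) and -0.24 for meninges (4 of 5; Ogn -0.56, Dcn -0.26). The choroid plexus values rest on single arrays: Ttr read 11.69 on array 4 and 13.38 to 13.79 on the others, and its value was 0.09 without array 4. Kcnj13 gave 0.15 without array 4 and 0.31 without array 1, and the choroid plexus median gave 0.25 and 0.45. Of the sex-linked genes 2 of 5 were tested, Eif2s3y (2.83, SE 1.94) and Xist (-1.13, SE 0.73), and their values rest on array 6. The part of array 6, of its sex-linked signal and of its control probes in the member values was not tested beyond leaving the array out. Whether the higher Gapdh measure of arrays 4 and 5 had a part in the member values was not tested.

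The mean of the brightest probes of Gad1, Gad2 and Slc32a1 read 11.20, 11.24 and 11.18 on the wild-type arrays and 11.26, 11.10 and 11.30 on the knockout arrays (log2). The genes whose pattern over the 6 arrays was most like it were Thoc7 (Pearson's r = 0.996), Hnrnpa1 (0.988) and Gm5802 (0.985), given as a description with no test, since 241 of the genes tested had an r above 0.9 over so few arrays. Thoc7, a member of the mRNA export complex THO, gave 11.33, 11.38 and 11.27 (wild type, arrays 1 to 3) and 11.41, 11.15 and 11.46 (knockout, arrays 4 to 6). Like the mean of the 3 GABA genes, it was lowest on array 5 and highest on array 6. Each of these extremes of the mean came mainly from 1 gene. On array 5, Gad1 lay -0.41 from its own mean, Gad2 0.06 and Slc32a1 0.00, and the other Gad1 probe lay 0.28 above. On array 6, Slc32a1 lay 0.27 above, Gad1 0.05 and Gad2 -0.06, while the dimmer Slc32a1 probes lay at -0.39, -0.27 and -0.08. The 3 genes thus did not share 1 pattern over the arrays.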

How the data were processed

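Total RNA was labelled as biotinylated cRNA and hybridised to 6 single-colour arrays, per the labels' protocols. The deposited file gives 1 log2 signal for each probe and array; the authors ran RMA and Partek, per the submitters' processing notes, with versions and settings not given in the sources used here. Because RMA forces the arrays to one distribution before it combines intensities into 1 signal per probe set, it hides a shift common to all genes. A probe set is called a probe throughout. Medians of the deposited values ran from 6.48 to 6.57 over the 6 arrays. No scanner files or detection calls were analysed here, and the number of arrays limits precision. The limma p-values set the difference between genotypes against the spread of these samples within a genotype, estimated partly from all genes.

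Groups came from the sample titles. Symbols were updated through Entrez identifiers (RefSeq, GRCm38.p6), which held 34741 of 34945 probes with 1 gene; 932 had several genes and 9160 none. Each of 18193 genes was represented by its brightest probe, and genes with a mean above the 30th percentile of all probes (4.70, log2) were tested, 14067 in all. All 45037 probes were also fitted with no filter. Both fits used limma 3.58.1 in R 4.3.3 with an intensity trend, two-sided, with Benjamini-Hochberg adjustment and a threshold of 0.05. The fit was tested on simulated data with 200 changed genes. It recovered 33.4% of those with a log2 change of 0.5 and 88% of those with a change of 1.

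The members, lists and named genes (all members, the 2 largest values of each other list, and the 3 genes most like the GABA genes; others were chosen after their values were seen) were chosen with earlier results of these data known. Alternatives were other filters, probe choices, normalizations, variance models, a threshold of 0.1 and each array left out.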

Additional observations from a re-analysis of the deposited data

How the results depend on the processing

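No paired analysis was possible because the labels number the arrays 1 to 6 without sharing a number between genotypes. No member gene or probe passed under any alternative run, with adjusted p from 0.271 to 0.999 over the gene fits and 0.330 to 0.999 over the probe fits. The number of genes passing, 5, became 8 with no filter and 3 with a filter at the 50th percentile, and ran from 2 to 10 with 1 array left out. The number of probes passing, 10, became 4 with a filter at the 50th percentile, 17 with array medians subtracted and 16 with array weights, and ran from 6 to 24 with 1 array left out. The median of the member genes, 0.15, became 0.03 with the most variable probe of each gene and ran from 0.02 to 0.15 with 1 array left out; that of the member probes, 0.12, became 0.07 with array weights and ran from 0.00 to 0.14. Signs turned in these cases: Gad1 to 0.01 with the mean of its probes and 0.04 with array weights, Slc32a1 to -0.10 with its most variable probe, Slc6a5 to 0.00 with a second quantile normalization, -0.01 with array medians subtracted and -0.10 with array weights (-0.06 for its probe in the fit over all probes), and the dimmer Sorcs3 probe to -0.04 with array weights. With 1 array left out, the brightest Gad1 probe ran from -0.23 to 0.08, the other Gad1 probe from -0.03 to 0.23, Slc6a5 from -0.07 to 0.12, the dimmer Tfap2b probe from -0.05 to 0.30, the dimmer Sorcs3 probe from -0.20 to 0.21 and the Slc32a1 probe of mean 6.31 from -0.23 to 0.07. The cause of these differences was not tested.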
